A study of Mus musculus with 2 samples.

Results

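The Rfx6 peaks far from any gene (far peaks) were those whose summit lay outside every protein-coding gene body and more than 100 kb from the nearest protein-coding transcript start. They were selected from position alone, without regard to read number or sequence, and numbered 1649 of the 23308 peaks deposited, which is 7.08% (95% Wilson interval 6.75 to 7.41, counting error only). The peaks came from anti-HA ChIP-seq of Min6b1, a mouse pancreatic β cell line, transfected with a plasmid in which the CMV promoter drives Rfx6 carrying a 3HA epitope tag (HA-Rfx6 group), so the precipitated protein was the introduced, tagged Rfx6 and not the protein made from the cells' own gene. The same antibody, 12CA5, was used on Min6b1 cells as the control (HA-Ctrl group), and both groups were grown in 25 mM glucose and 15% serum. The control was taken as untransfected from its cell type label, although its growth text repeats that of the transfected sample. The transfected cells were collected 2 days after receiving 24 µg of plasmid. There was 1 library per group, so no difference below has a replicate check and intervals cover counting error only.

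Rfx6 is a winged-helix transcription factor of the RFX family and is needed for the formation of pancreatic endocrine cells and for the function of adult β cells. RFX proteins bind DNA as dimers at the X-box, an imperfect inverted repeat with a GTTGCC-like left arm and a GGCAAC-like right arm. Most sites that a transcription factor occupies away from promoters lie in or near genes, but regulatory elements can also act from within long gene-poor stretches, and the nearest gene along the chromosome is not necessarily the gene such an element acts on.

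The X-box was easiest to see in the far peaks with the highest fold enrichment among those that held one. Fold enrichment compares the reads of a peak with the number that the peak caller expected there from the control and the surrounding DNA. The sequences are from the mm9 (NCBIM37) genome, each peak is named by its nearest protein-coding gene, and the capitals mark the strict X-box, defined as GTNNCC with a purine before CC, 0 to 3 bases, and NGNAAC with a purine first and a pyrimidine between G and AAC, on either strand. All lie outside protein-coding genes.
Prex1, chr2:166213835-166213887, plus strand: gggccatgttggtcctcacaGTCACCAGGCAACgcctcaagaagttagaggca
Sykb, chr13:52840114-52840167, plus strand: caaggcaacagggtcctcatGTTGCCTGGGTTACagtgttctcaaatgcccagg
Nphp4, chr4:151999795-151999848, plus strand: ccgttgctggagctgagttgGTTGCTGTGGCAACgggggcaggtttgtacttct
Diras2, chr13:52434721-52434773, plus strand: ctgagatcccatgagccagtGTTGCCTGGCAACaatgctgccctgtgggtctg
4930452B06Rik, chr14:10162785-10162838, plus strand: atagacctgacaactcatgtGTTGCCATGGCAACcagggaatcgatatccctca

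The Prex1 peak, beside the gene of a guanine nucleotide exchange factor for Rac, held 348 reads at a fold enrichment of 62.4, and its X-box was centred 5 bp from the summit. The weaker of 2 strong peaks near Sykb, which encodes a tyrosine kinase of immune receptor signalling, held 806 reads at 47.55-fold, with the X-box 12 bp from the summit and 147.9 kb from the transcript start. The Nphp4 peak, near a gene of the ciliary transition zone, held 362 reads at 35.1-fold, with its X-box 56 bp from the summit. The Diras2 peak had 208 reads and 31.9-fold enrichment. The peak of 4930452B06Rik lay much farther out, 664.1 kb from the transcript start, with 166 reads, a fold enrichment of 27.1 and an X-box 6 bp from the summit. Across the 10 X-box peaks of highest fold enrichment, reads ran from 158 to 806 and fold enrichment from 26.9 to 62.4.

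Several of the strongest far peaks had no strict X-box in the 200 bp around the summit. In the sequences that follow, which cover 120 bases around the summit, capitals mark the stretch closest to the strict X-box.
C130026L21Rik, chr5:112331626-112331745, plus strand: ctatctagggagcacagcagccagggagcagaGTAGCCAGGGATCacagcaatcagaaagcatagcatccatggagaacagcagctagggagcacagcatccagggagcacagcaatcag
Gm17697, chr16:9281148-9281267, plus strand: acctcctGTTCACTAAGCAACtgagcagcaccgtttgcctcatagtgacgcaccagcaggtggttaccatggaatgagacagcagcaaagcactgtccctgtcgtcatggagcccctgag
Zc3h12a, chr4:124952550-124952669, plus strand: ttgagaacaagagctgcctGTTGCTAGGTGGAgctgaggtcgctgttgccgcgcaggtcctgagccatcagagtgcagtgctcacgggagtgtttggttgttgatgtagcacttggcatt
Sykb, chr13:52847856-52847975, plus strand: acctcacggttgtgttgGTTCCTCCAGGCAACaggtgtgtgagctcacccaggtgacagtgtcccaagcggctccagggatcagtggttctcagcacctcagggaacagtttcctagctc
Matn1, chr4:130652222-130652341, plus strand: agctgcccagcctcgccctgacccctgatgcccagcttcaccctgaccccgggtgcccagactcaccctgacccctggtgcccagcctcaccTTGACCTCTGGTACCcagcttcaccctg

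The stronger Sykb peak had 1486 reads and 60.5-fold enrichment, and its closest stretch differed from the strict X-box at 1 base. The Gm17697 peak (420 reads, 67.6-fold) and the peak near Zc3h12a, which encodes an RNase that limits inflammatory transcripts (326 reads, 61.4-fold), differed at 2 bases. The C130026L21Rik peak had the highest fold enrichment of all far peaks, 69.2, with 939 reads, and the peak near Matn1, the gene of the cartilage matrix protein matrilin, had 662 reads and 52.6-fold. Both also differed at 2 bases, and short units recurred in part of both windows, with 36.1% and 48.2% of their 10-mers present more than once. Of the 10 far peaks with the highest fold enrichment, 1 held a strict X-box and 4 a stretch with at most 1 mismatch to it, while 6 held the relaxed X-box described next.

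Far peaks held X-boxes at rates close to those of peaks near genes and well above those of the DNA beside them. A strict X-box was present in 125 of 1649 far peaks, 7.58% (6.40 to 8.96), against 6.42% of all peaks and 2 windows (0.121%, 0.0333 to 0.441) at the same summits shifted 1 kb to the right. The shares were 7.44% (6.83 to 8.09) in intergenic peaks at 1 to 100 kb from a start, 5.89% (5.45 to 6.37) in gene bodies and 5.75% (5.14 to 6.44) within 1 kb of a start. With at most 1 mismatch allowed, 542 far peaks (32.9%, 30.6 to 35.2) held an X-box, against 29.8% of all peaks and 4.25% (3.37 to 5.33) of the shifted far windows. The single arm GTTGCC was present in 476 far peaks (28.9%, 26.7 to 31.1), against 26.8% of all peaks and 7.04% of shifted windows. A relaxed X-box, which fixes only the purine or pyrimidine class at most places and allows 1 to 3 bases between its arms, was found in 788 far peaks (47.8%, 45.4 to 50.2), against 45.9% of all peaks and 23.3% (21.3 to 25.4) of shifted windows. Far and intergenic peaks were within 2 percentage points of each other for each of these 4 patterns, with overlapping intervals, and promoter peaks had the lowest value of each.

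**Figure D1:**
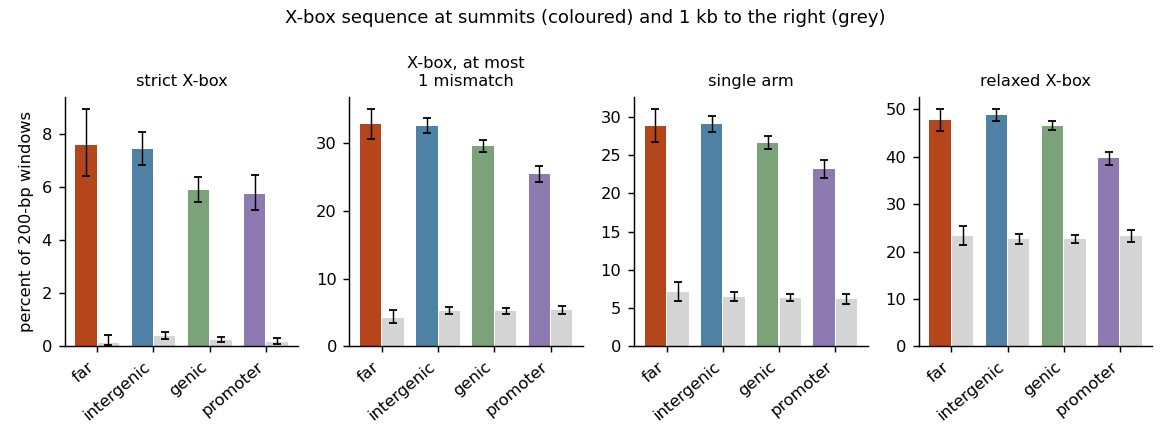
Share of 200-bp windows (y axis, percent) that held a strict X-box, an X-box with at most 1 mismatch, the single arm GTTGCC or a relaxed X-box, for far, intergenic, genic and promoter peaks at the summit (coloured) and 1 kb to the right (grey), with 95% Wilson intervals. For the strict X-box the far bar stands at 7.58% and its grey partner at 0.121%.

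Most X-boxes in the 200-bp windows lay close to the summit. The 125 peaks held 140 strict X-boxes in these windows, 12 of the peaks having more than 1, out of 187 strict X-boxes of far DNA that lay anywhere in a peak. Among the 140, the median distance between the centre of an X-box and the summit was 19.5 bp, and 82 X-boxes (58.6%) lay within 25 bp and 111 (79.3%) within 50 bp. The arms were separated by 1 base in 90 X-boxes and by 2 bases in 45, whereas 2 had no spacer and 3 had a spacer of 3 bases.

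**Figure D2:**
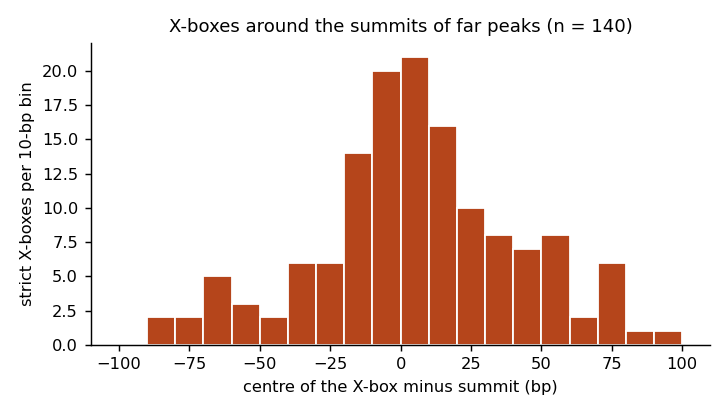
Number of strict X-boxes (y axis, per 10-bp bin) by the distance of their centre from the summit (x axis, bp) in far peaks. The 2 bins next to the summit hold 20 and 21 of the 140 X-boxes, and the bins beyond 80 bp on either side hold at most 2 each.

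X-boxes were more frequent in the stronger far peaks. When far peaks were ranked by fold enrichment and split into 5 groups of equal size, the strict X-box was present in 3.94% (2.32 to 6.62) of the weakest group (2.43- to 6.06-fold) and 10.0% (7.21 to 13.7) of the strongest (14.4- to 69.2-fold), with 6.97%, 9.12% and 7.88% between them. The intervals of neighbouring groups overlapped, and those of the first and last did not. The share with at most 1 mismatch went from 21.8% (17.7 to 26.6) to 40.3% (35.2 to 45.7), and that with a relaxed X-box from 37.0% to 57.0%. By distance, the strict X-box was present in 6.53% of the 965 far peaks at 100 to 200 kb, 8.64% of the 579 at 200 to 500 kb and 11 of the 88 at 500 to 1000 kb (interval 7.13 to 21%), with overlapping intervals, and in 1 of the 17 beyond 1000 kb.

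Motifs of other factor families were searched in the same windows. The E-box CAGCTG was present in 17.0% (15.3 to 18.9) of far peaks and 9.40% (8.08 to 10.9) of shifted windows, while the E-box CATCTG was at 17.5% and 17.1%. Over all peaks and their shifted windows, CAGCTG was at 17.9% and 10.9%, and CATCTG at 16.1% and 15.6%. The MAF core TGCTGA was at 19.35% and 16%, against 19.37% of all peaks. The AP-1 site TGANTCA was at 8.07% and 7.34%, against 5.64% of all peaks. The forkhead sites TGTTTAC and TGTTTGC (3.76% against 2.97%, and 4.61% against 4.37%), the NKX site CACTTGA (2.43% against 2.55%) and the ETS site CCGGAAG (1.03% against 1.15%) had overlapping intervals at and beside the summit. In the same order, these sites were in 2.45%, 3.88%, 2.03% and 2.17% of all peaks. The homeodomain core TAATTA was less frequent at far summits (2.91%, 2.20 to 3.84) than beside them (5.70%, 4.68 to 6.93), and so was CCAAT (20.2%, 18.3 to 22.2, against 26.3%, 24.2 to 28.4). All peaks showed the same direction, with TAATTA at 2.02% against 4.535% and CCAAT at 16.9% against 22.85%. The GC box GGGCGG, a usual promoter element, was in 3.21% of far peaks and 34.0% of promoter peaks. The CTCF core, CC followed after 3 bases by AGGGGGC, was in 2 far windows (0.121%), against 0.296% of all peaks. The CRE TGACGTCA, the nuclear factor I palindrome of TGGCA and TGCCA 3 bases apart, and the HNF1 site of GTTAAT and ATTAA 1 base apart were in 0 of 1649 far windows, for which the upper Wilson bound is 0.232%. These 3 were rare in all peaks too, at 0.2875%, 0.0601% and 0.00858%. Both strands were searched, the relaxed X-box and the arm GTTGCC overlap the strict X-box, and a match is a description of the DNA and not evidence of a bound factor.

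Far summits were richer in G and C than the DNA beside them. The median GC content of the 200 bp around far summits was 51.0%, against 45.0% 1 kb away, 52.5% at intergenic, 53% at genic and 64.5% at promoter summits. The median ratio of observed to expected CpG was 0.156 at far summits and 0.706 at promoter summits. The part of GC content in the motif shares was not tested.

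Far peaks were sparse for the DNA they lay in. DNA outside protein-coding gene bodies and over 100 kb from any protein-coding start made up 779.4 Mb, 30.5% of assembled bases on chromosomes with peaks. It held 2.12 peaks per Mb. The corresponding values were 8.70 per Mb in intergenic DNA at 1 to 100 kb, 10.6 in gene bodies and 83.2 within 1 kb of a start. The median distance from a far summit to the next summit of any class was 32.5 kb, against 10.9 kb for intergenic and 8.90 kb for genic peaks. Distances to the nearest start ran from 100 to 2196 kb with a median of 175.1 kb, and 1 in 4 far peaks lay beyond 268.5 kb. At the threshold itself, the 5 peaks just inside (100017 to 100102 bp, near Lpl, Zmiz1, Sntn, Tmem100 and Rgs2) had 44 to 141 reads, and the 5 just outside (99784 to 99909 bp) had 39 to 64.

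A small share of the X-boxes in far DNA had a peak on them. The genome held 7165 strict X-boxes in far DNA, and 140 of them (1.95%, 1.66 to 2.30) had a peak summit within 100 bp. The share was 6.08% (5.62 to 6.56) of 9875 X-boxes in intergenic DNA at 1 to 100 kb, 6.05% (5.62 to 6.51) of 10996 in gene bodies and 28.5% (25.8 to 31.3) of 1042 near starts. Short reads are hard to place in copied DNA, so the count was repeated for X-boxes in windows where at most 50% of 32-mers recur in the genome. It gave 2.07% (1.75 to 2.44) in far DNA, against 6.54%, 6.24% and 29.5%. The density of X-boxes themselves was 9.19 per Mb in far DNA, 12.9 in intergenic DNA, 11.6 in gene bodies and 17.7 within 1 kb of a start.

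**Figure D3:**
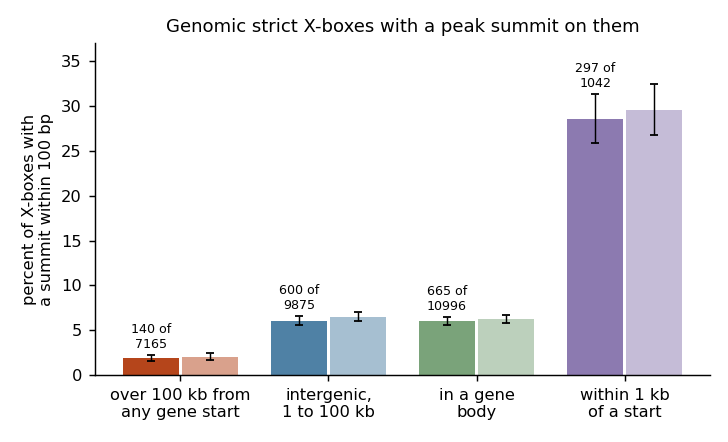
Share of genomic strict X-boxes with a peak summit within 100 bp (y axis, percent) by position (x axis), for all X-boxes (dark, with their counts) and for those in unique surroundings (pale), with 95% Wilson intervals. Far X-boxes stand at 1.95% and 2.07%, below intergenic ones at 6.08% and 6.54%.

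The share of X-boxes with a summit differed between X-box sequences. The sequences compared here were GTTACCTAGCAAC and GTTACCTGGCAAC, the commonest ones in far DNA, and the palindrome GTTGCCATGGCAAC. Of 1035 far copies of GTTACCTAGCAAC, 3 (0.290%, 0.0986 to 0.849) had a summit within 100 bp, while 32 of 771 copies of GTTACCTGGCAAC (4.15%, 2.96 to 5.80) did. The palindrome GTTGCCATGGCAAC had a summit at 10 of 46 far copies (21.7%, 12.3 to 35.6), close to the 26.5% outside far DNA. Elsewhere in the genome the first 2 had 3.42% and 11.1% of their copies at a summit. A further sequence, GTTGCCTAGCAAC, had 7 of 72 far copies at a summit (9.72%, 4.79 to 18.7) against 32.7% elsewhere. Of GTGACCAAGGCAAC, 0 of 133 far copies were at a summit, and 1 of 618 elsewhere. The upper bound for the far copies, 2.81%, includes the 1.95% of all far X-boxes. The 140 X-boxes at far summits comprised 60 different sequences.

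The X-box GTTACCTGGCAAC lay in a repeated stretch of DNA at many of these peaks. It was found in 22 of the 125 far X-box peaks (17.6%, 11.9 to 25.2), on 14 chromosomes. The same sequence was in 18.4% of intergenic, 9.26% of genic and 1.42% of promoter X-box peaks. Of the 22 with 20 bases on either side, the first 5 shown here share much of that flank and the Rps13-ps1 peak does not. Capitals mark the X-box.
Dsel, chr1:114000091-114000143, plus strand: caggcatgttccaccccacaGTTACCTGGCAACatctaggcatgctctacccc
Arid1b, chr17:4866633-4866685, plus strand: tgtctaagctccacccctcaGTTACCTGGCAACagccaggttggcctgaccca
Cnr1, chr4:33749038-33749090, plus strand: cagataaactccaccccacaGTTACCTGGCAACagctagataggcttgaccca
Cmpk2, chr12:27441343-27441395, plus strand: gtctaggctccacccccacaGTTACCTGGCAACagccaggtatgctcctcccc
Nav3, chr10:108917743-108917795, minus strand: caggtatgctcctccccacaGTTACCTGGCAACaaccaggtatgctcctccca
Rps13-ps1, chr8:89758522-89758574, plus strand: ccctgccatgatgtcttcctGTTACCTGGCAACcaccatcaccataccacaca

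At 13 of the 22 peaks at least 40 of these 53 bases matched the majority base of all 22, and the Rps13-ps1 stretch matched at 23. More than 1 X-box was present in 9 of the 22, and a TATAAA lay within 60 bases after the X-box in 9. Of all far windows, 5.46% held TATAAA, but a window is 200 bp, so the 2 values cover unlike stretches. These 22 peaks had 33 to 112 reads (median 56) and a fold enrichment of 4.64 to 13.7. The other 103 far X-box peaks had medians of 70 reads and 10.8-fold. With the same minimum of 40 of 53 bases and at most 3 mismatches in the X-box, the genome held 3156 stretches of this kind. Of these, 971 lay in far DNA, and 22 of the 971 (2.27%, 1.5 to 3.41) had a summit within 100 bp. Those 22 stretches are not the same set as the 22 peaks, of which 13 reached 40 bases, and need not hold the exact X-box. The majority sequence was taken from the peaks themselves, so these counts describe the stretch and do not test its occupancy.

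Another kind of repetition was found within single windows. In 61 far peaks (3.70%, 2.89 to 4.72) at least 50% of the 10-mers in the 200 bp around the summit occurred there more than once, against 1.9% of all peaks and 1.76% (1.23 to 2.51) of shifted far windows. The 3 with the most reads are shown in the following lines, 160 bases each, because their recurring units can be read directly, and capitals mark the bases in 10-mers that recur.
Prox1, chr1:192125260-192125419, plus strand: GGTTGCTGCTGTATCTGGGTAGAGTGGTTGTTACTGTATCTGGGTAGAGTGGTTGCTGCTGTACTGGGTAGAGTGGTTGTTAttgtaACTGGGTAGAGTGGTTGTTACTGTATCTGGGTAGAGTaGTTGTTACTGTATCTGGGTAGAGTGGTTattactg
Htr2a, chr14:74890429-74890588, plus strand: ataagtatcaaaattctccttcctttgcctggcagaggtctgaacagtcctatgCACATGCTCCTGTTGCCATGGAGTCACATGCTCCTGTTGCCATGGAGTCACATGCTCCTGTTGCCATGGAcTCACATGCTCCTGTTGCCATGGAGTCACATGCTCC
Rab11fip4, chr11:79612022-79612181, plus strand: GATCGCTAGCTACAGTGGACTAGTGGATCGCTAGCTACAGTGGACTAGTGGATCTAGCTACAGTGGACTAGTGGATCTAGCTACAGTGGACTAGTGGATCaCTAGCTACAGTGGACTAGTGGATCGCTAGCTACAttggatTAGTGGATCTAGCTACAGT

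The Prox1 peak, 130.8 kb upstream of the gene of a homeodomain factor of islet, liver and lymphatic development, had 1292 reads and 28.4-fold enrichment over 5275 bp, and 69.1% of its 10-mers recurred. The Htr2a peak, near the gene of a serotonin receptor, had 435 reads and 43.1-fold, and its unit contains GTTGCC. The Rab11fip4 peak had 338 reads and 34.1-fold, with 86.9% of 10-mers recurring. Across the 61 peaks the median was 86 reads and 9.89-fold, against 66 and 8.47 for the other 1588. Strict X-boxes were found in 2 of the 61 (3.28%, 0.904 to 11.2) and relaxed ones in 10 (16.4%, 9.16 to 27.6), against 7.75% and 49.0% (46.5 to 51.5) of the other far peaks. Prox1 also had another, unrepetitive far peak of 69 reads and 11.3-fold at 359.9 kb. The effect of recurring units on read placement at these peaks was not tested.

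In signal, far peaks were close to intergenic and genic peaks. The read count of a far peak, not normalised, ranged from 26 to 3489 with a median of 66 (quartiles 48 and 103), against medians of 70 in intergenic, 71 in genic and 82 in promoter peaks. The median fold enrichment was 8.47 (quartiles 6.36 and 12.8), against 8.71, 8.47 and 8.94. At least 20-fold enrichment was reached by 160 far peaks, 9.70%, against 10.4% of all peaks. The top 10% of all peaks by reads included 7.76% of far peaks and 13.75% of promoter peaks. The deposited FDR of far peaks had a median of 2.86%, and 1 far peak was at or below 1%, as were 10 of all peaks. Some of the strongest far peaks had the highest deposited FDRs. It was 25.3% for 7 of the peaks described here (both Sykb peaks, Prox1, C130026L21Rik, Matn1, Gm17697 and St8sia2), 17.5% for Prex1 and 11.4% for Zc3h12a, whereas Htr2a was at 0.0%. Those 7 share a tied score of 3100, which is not particular to far peaks, since 77 of all 23308 peaks had it. These values rest on 33949757 retained reads of the 3HA-Rfx6 library and 3567375 of the control, and what the shallower control contributes to these values was not tested. The 10 far peaks with the most reads were those of Pgk2, Sykb (2 peaks), Prox1, C130026L21Rik, Matn1, St8sia2, Atad2b, Htr2a and Rreb1, with 424 to 3489 reads.

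The peak with the most reads stood apart from the others. It lay at chr17:39979453-39986369, 360.0 kb from Pgk2, the testis phosphoglycerate kinase gene, with its summit 254 bp from the start of the annotated pseudogene AY036118. Its 3489 reads were the most and its fold enrichment of 2.43 the lowest of all 23308 peaks, its GC content was 68.5%, and it held neither a strict nor a relaxed X-box. Each 32-mer around its summit occurs once in the assembly, but this count cannot include copies that the assembly lacks. The cause of its many reads and low fold enrichment was not tested. At the other end were the 10 peaks farthest from any protein-coding transcript start, 1184 to 2196 kb away. They had 40 to 103 reads and 4.94- to 17.9-fold enrichment, and 0 of these 10 held a strict X-box. That number of peaks is too small to set apart from the 7.58% of all far peaks. The farthest, near Pik3c3, the gene of a class III phosphoinositide kinase, had 40 reads, and the strongest of the 10 was 1201 kb from Cited2, a gene for a transcriptional coregulator, with 103 reads and 17.9-fold.

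**Figure D4:**
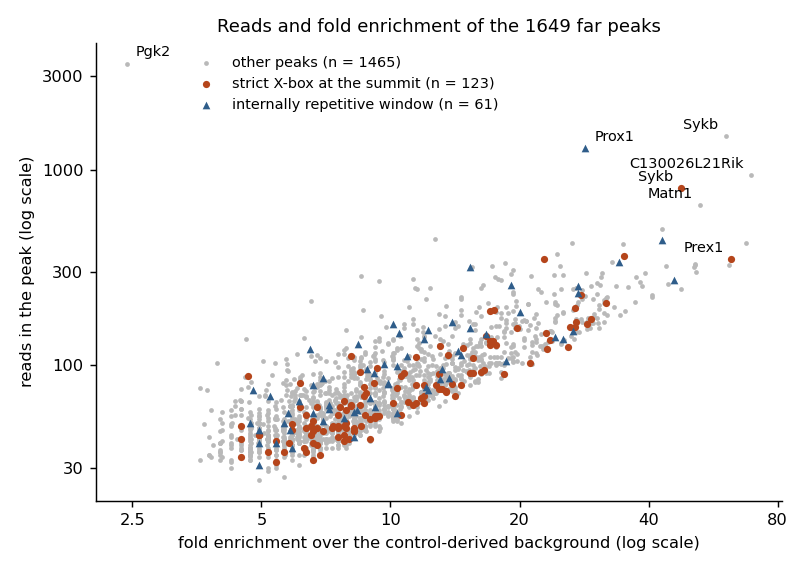
Reads in the peak (y axis, log scale) against fold enrichment (x axis, log scale) for the 1649 far peaks, with those holding a strict X-box in red and those with an internally repetitive window as blue triangles (2 peaks that are both are drawn as triangles). Peaks of higher fold enrichment hold more reads, the Pgk2 peak at 3489 reads and 2.43-fold lies apart, and X-box peaks span the range up to the Prex1 peak at 62.4-fold.

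Nearest genes differed in their number of far peaks. Far DNA was nearest to 3124 protein-coding genes, of which 852 (27.3%) were the nearest gene of at least 1 far peak, and 515 of these of exactly 1. The 64 genes with at least 5 far peaks accounted for 447 peaks, 27.1% of the total. The share of far DNA nearest to these 64 genes and the same count over all peaks were not computed. The 27.1% therefore cannot be called high or low. Among the 10 genes with the most far peaks, the far DNA nearest to a gene ran from 95 kb (Bmp7) to 677 kb (Fam86). Kazn and C130026L21Rik had 15 each, Matn1 14, Fam86 13, Zmiz1 (a coactivator of the PIAS-like family) 13, Cdh26 (a cadherin) 12, Nphp4 10, and Bmp7 (a secreted growth factor), Dhx35 and Ptpru 9 each. The 15 peaks of C130026L21Rik lay within 235 kb of far DNA and had 40 to 939 reads, and the 15 of Kazn had 44 to 282 reads. Matn1 and Ptpru flank a single gap between genes, in which 23 far peaks lay over 622.6 kb. Of these, 0 held a strict X-box, but 23 peaks are too few to set apart from the 7.58% of all far peaks. The gaps from Rps24 to Zmiz1 (21 peaks), C130026L21Rik to Cryba4 (20), Kazn to Prdm2 (20) and Cdh26 to 4930591A17Rik (20) followed.

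**Figure D5:**
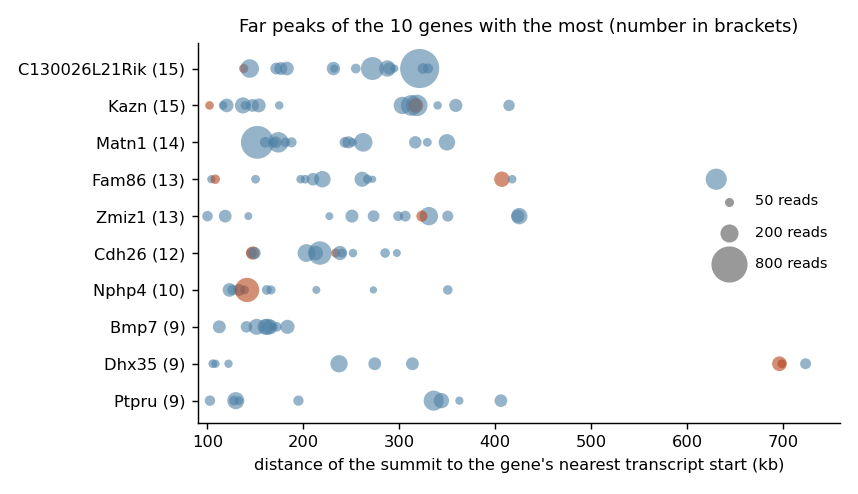
Distance of each far peak from the nearest transcript start of its gene (x axis, kb) for the 10 genes with the most far peaks (y axis, number in brackets), with the area of each circle in proportion to the reads and red for peaks with a strict X-box. Matn1, Bmp7 and Ptpru have no red circle, and the largest circles are the C130026L21Rik peak at 321.2 kb and the Matn1 peak at 152.0 kb.

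Some neighbouring far peaks formed chains. With summits at most 12500 bp apart joined, 522 far peaks (31.7%, 29.5 to 33.9) fell into 218 chains, of which 162 had 2 peaks, 38 had 3 and 18 had 4 or more. This share was not computed for the other classes, so chaining cannot be called particular to far peaks. The next summit of any class lay a median of 32.5 kb from far summits. For intergenic, genic and promoter summits it was nearer, at 10.9, 8.90 and 16.3 kb. The longest had 8 peaks over 42.75 kb near Bmp7, with 123, 57, 38, 137, 163, 149, 158 and 82 reads in order of position, so that 5 of the 8 exceeded 100 reads. The next had 7 peaks over 35.65 kb near Matn1, with 49 to 662 reads. Neither chain held a strict X-box, but their peaks are too few to set apart from the 7.58% of all far peaks. Peaks in chains had a median of 74 reads and those alone 64, and the shares with a strict X-box were 7.66% (5.68 to 10.3) and 7.54% (6.14 to 9.23).

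Genes of islet function were among the nearest genes. Of 18 islet transcription factor genes with far DNA nearest to them, 9 (50%, 29 to 71) had a far peak, against 27.3% of all such genes, with 26 peaks in 4941 kb of far DNA, 5.26 per Mb against 2.12. Sox9, a progenitor factor, had 8, all downstream at 124.3 to 373.8 kb and with 40 to 160 reads, and 2 of them, at 261.6 and 266.2 kb with 122 and 80 reads, held a strict X-box. Nr5a2, a nuclear receptor of the exocrine pancreas, had 5 peaks of 45 to 60 reads, and Tshz1, a zinc finger factor of β cell maturation, had 5 of 42 to 174 reads. St18 had 2 peaks, of 68 and 76 reads. Single peaks lay near Foxa2 (152 reads, 11.5-fold, 294.3 kb), Nkx6-1 (51 reads, 239.0 kb) and Gata6 (81 reads, 113.4 kb), all of them factors that guide pancreas or β cell development. The 2 peaks of Prox1 are described above. Apart from those of Sox9, none of the 26 peaks of this list held a strict X-box. The share over all far peaks was 7.58%.

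For insulin secretion, 3 of 5 genes with far DNA (60%, 23.1 to 88.2) had peaks, 9 in all and 6.09 per Mb, against 27.3% and 2.12 per Mb for all genes. Pcsk1, which encodes the convertase that cleaves proinsulin, had 4, with 55 and 43 reads upstream and 164 and 155 reads downstream, and the stronger pair lay 146.8 and 182.8 kb from the start. Cacna1e, a calcium channel subunit gene, had 4 upstream peaks of 34 to 80 reads at 106.0 to 155.4 kb. The insulin gene Ins1 had 1 peak of 62 reads, 285.9 kb away and alone in 980 kb of far DNA. None of the 9 held a strict X-box, but 9 peaks are too few to set apart from the 7.58% of all far peaks. Of the disallowed genes, which β cells keep nearly silent, only the 11 that the paper names as common to both earlier studies were listed here. The paper's full set is larger. Among these 11, 2 of 5 with far DNA (40%, 11.8 to 76.9) had a peak, 1.41 per Mb. They were Smad3, a mediator of TGF-β signalling (136 reads, 4.60-fold, 105.0 kb), and Lmo4, a LIM-only factor (49 reads, 175.8 kb).

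In broader gene families, the density of far peaks was 0.566 and 3.26 per Mb of far DNA. Among developmental transcription factor families, 50 of 123 genes (40.7%, 32.4 to 49.5) had a far peak, with 113 peaks at 3.26 per Mb, led after Sox9 by Irx3 and Sall3 with 7 each and Sox2 with 6. The Irx3 peaks had 36 to 86 reads and included 2 with a strict X-box. Among cell adhesion and synapse families, 16 of 70 genes (22.9%, 14.6 to 34.0) had a far peak, with 35 peaks in 61816 kb, 0.566 per Mb, and 12 of these 35 were those of Cdh26. The background was 27.3% of genes and 2.12 peaks per Mb. The lists share genes (Sox9 and Foxa2 are in 2 of them), genes differ in how much far DNA is nearest to them, and the median peak of each family was similar to that of all far peaks, at 63 reads for developmental factors and 58 for adhesion genes against 66.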

How the data were processed

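Per the labels and the authors' methods, 50-base single-end reads of the 2 anti-HA ChIP-seq libraries (10 ng of DNA, 14 PCR cycles) were mapped to mm9, with CASAVA 1.8.2 and Bowtie named in the submitters' processing notes, and peaks were called with MACS 1.4.2 at a p-value cutoff of 1e-05, keeping at most 1 read per position. The treatment of reads that map to several places is not given in the sources used here. Retained reads were 33949757 of 49443917 for 3HA-Rfx6 and 3567375 of 16911298 for the control. For each peak the authors deposited the count of 3HA-Rfx6 reads, not normalised, the fold enrichment, which is a ratio to the expected background, a score, which is the −log10 p-value multiplied by 10, and the FDR as a percent, obtained by exchanging ChIP and control. The control enters only through this peak calling.

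From the deposited list, each summit was placed on NCBIM37 and compared with GENCODE M1 (22380 protein-coding genes, 51723 protein-coding transcripts). Motifs were searched on both strands of 200-bp windows, at the summit and 1 kb to its right, 32-mers were counted over 211 contigs, and shares were given 95% Wilson intervals (Python 3.11.15, numpy 2.4.6, pandas 2.3.3, scipy 1.17.1, numba 0.67.0, matplotlib 3.10.9). The steps were checked on simulated sequence with known sites. No test was made, since peaks of 1 library are not replicates. Genes were named by rule: the nearest gene of the 10 far peaks with the most reads, the 10 highest in fold enrichment, the 10 farthest, the 10 with a strict X-box and the highest fold enrichment, the 10 genes with the most far peaks, and listed islet, insulin secretion, disallowed, adhesion and developmental genes. Genes named for chains, gaps between genes, noncoding starts, the distance threshold, repetitive windows and the repeated X-box stretch were chosen after their values were seen. The members and lists were chosen with earlier results of these data known. The RNA-seq and qRT-PCR of the study were not analysed here. Values of some named peaks are not reported here.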

Additional observations from a re-analysis of the deposited data

How the results depend on the processing

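No paired analysis was possible because the labels give no replicates (1 library per group) and no result came from a test. Of 62 alternative values for 10 results, 33 stayed within the counting error of the reported value (counts of peaks within 1.5 times it, such as 1563 far peaks with the starts of every transcript of protein-coding genes), and the others follow. With only the 50% of all peaks with the highest scores, 740 far peaks remained (0.95 per Mb), with medians of 108 reads, 13.56-fold enrichment and 52.0% GC, and 23.2% of them in chains. At a fold enrichment of at least 10 there were 645 far peaks (0.828 per Mb) with a median of 110 reads, and 9.15% held a strict and 53.5% a relaxed X-box. At an FDR of at most 1% there was 1 far peak, which held no strict X-box (a share of 0.0%). A distance of over 50 kb gave 3106 far peaks (3.10 per Mb). A distance of over 200 kb gave 684 (1.27 per Mb), with 50.5% GC and a strict X-box in 9.06%. Genes of every annotated type in place of protein-coding ones left 864 far peaks. A 100-bp window gave 52.0% GC and X-box shares of 5.88% (strict) and 34.0% (relaxed), and placing a peak by its centre gave 6.14% (strict). With chains within 5 kb, 16.4% of far peaks were in a chain, and within 25 kb 42.8%. Counting both flanking genes raised the highest number of far peaks at 1 gene from 15 to 23 (Matn1). Of the alternatives chosen after seeing the data, at most 1 mismatch gave an X-box share of 32.9%, and leaving out peaks with the commonest X-box sequence gave 6.33%. Leaving out copied or internally repetitive windows kept the medians of reads, fold enrichment and GC and both X-box shares within counting error, and leaving out the peak with the most reads kept the medians of reads and fold enrichment there. The alternative without repeat-masked windows was not run, because the genome used carries no repeat masking. The depth of the control and the 1 library per group limit every value, and the recall of weak peaks at this depth is unknown.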

Other observations

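Some far peaks lay at or in noncoding genes of the annotation. Of the 1649, 111 (6.73%, 95% Wilson interval 5.62 to 8.04, counting error only) had their summit in the body of a noncoding gene, 57 of them in lincRNA genes and 49 in processed transcripts. The summit lay within 1 kb of a noncoding start in 23. The same shares were not computed for all peaks or for far DNA, so these counts cannot be called high or low. The strongest of these by fold enrichment were beside SNORA17, a small nucleolar RNA gene (254 reads, 38.6-fold, 553 bp from the start), Gm13490 (155 reads, 29.2-fold) and the lincRNA gene Gm11818 (155 reads, 19.8-fold).

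Far peaks were unevenly spread over the chromosomes. The 19 autosomes held 1.31 (chromosome 3) to 3.82 (chromosome 9) far peaks per Mb of far DNA, with a median of 2.21. The X chromosome held 20 far peaks in 58.5 Mb, 0.342 per Mb, with a median of 43.5 reads. It held 174 peaks of all classes together, fewer than any autosome. Far peaks made up 11.5% of these, against 7.08% of all peaks.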
